A study of Ovis aries with 18 samples.

Results

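oar-miR-103 and oar-miR-107 are a pair of closely related microRNAs (miRNAs), small regulatory RNAs that lower the output of their target messages and are also found in plasma. They were taken by name from a table of plasma miRNA counts in sheep, where they are 2 of 364 features, and both are among the 168 features that passed a low-count filter. The 200 µL plasma samples came from female Polish Longwool sheep, 6 fed a high-fat diet for 14 weeks (OBESE) and 6 kept on a standard diet (CTRL). All 12 ewes, the controls included, were ovariectomized and carried estradiol implants. Blood was drawn at weeks 7, 10 and 14, and each diet and week is represented by 3 libraries, 18 in all. Whether 1 ewe or a pool stands behind a library is not stated in the labels, nor whether libraries with the same replicate number at different weeks share ewes. Every p-value below thus rests on the differences among libraries, which may partly be technical.

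miR-103 and miR-107 carry the same seed, the stretch near the 5′ end that picks target messages, and in human they differ by a single base near the 3′ end. Each lies within a gene for a pantothenate kinase, the enzyme that starts coenzyme A synthesis. In the RefSeq annotation of the sheep assembly ARS-UI_Ramb_v3.0, the gene of miR-103 lies within the span of PANK3 and that of miR-107 within the span of PANK1. Both miRNAs are known to be raised in the liver of obese mice. In mice, silencing the pair is known to improve glucose handling and insulin sensitivity, and caveolin-1, a membrane protein that stabilises the insulin receptor, is a known target. The comparisons below concern the level of each miRNA by diet and week, the ratio between them, and how far they moved together. Since the sequences are nearly the same, reads that end early could be credited to either, and how such reads were assigned is not given in the sources used here, so the division between the 2 is uncertain while their sum is less so.

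Library totals ranged from 388574 to 1269829 counts. miR-103 had between 366 and 1672 counts in a library and miR-107 between 269 and 1438. Levels are given as CPM (counts scaled to a common library size) after scaling by TMM, a factor that aligns the bulk of the miRNAs between libraries. On that scale miR-103 averaged 1089 ± 285 CPM and miR-107 averaged 808 ± 274 CPM (SD, n = 18). By mean CPM they ranked 18 and 22 of the 54 named miRNAs tested. Plasma RNA comes from many cells, so release from fewer cells and less RNA per cell cannot be told apart. Both stood far below miR-16b, which took 47.1% ± 3.54 of the counts (SD, n = 18). CTRL week 7 replicate 1 and CTRL week 14 replicate 3 had the lowest TMM factors, 0.653 and 0.718, and the highest miR-16b shares, 53.9% and 55.1%. Without TMM the CPM of miR-103 in these libraries was 1128 and 982, against 1729 and 1368 with it.

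miR-103 showed no diet effect that exceeded the spread between libraries. At week 7 it stood at 1167, 710 and 1314 CPM in OBESE replicates 1 to 3, against 1729, 1230 and 849 CPM in the CTRL replicates. OBESE replicate 2 and CTRL replicate 3 were low, CTRL replicate 1 was the highest of all 18 libraries, and the diets overlapped. By library totals alone, CTRL week 7 replicate 1 had 1128 CPM and lay below CTRL replicate 2 at 1161 CPM. At week 10 miR-103 stood at 1240, 645 and 1115 CPM in the OBESE replicates, against 964, 884 and 798 CPM in the CTRL replicates. The CTRL values lay close together and within the OBESE range. At week 14 it stood at 1371, 1286 and 958 CPM in the OBESE replicates, against 767, 1213 and 1368 CPM in the CTRL replicates, again with overlap.

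miR-107 showed no diet effect beyond that spread either. At week 7 it stood at 887, 461 and 753 CPM in the OBESE replicates, against 1506, 965 and 624 CPM in the CTRL replicates. CTRL replicate 1 was again the highest library of the series, and the lowest CTRL library fell inside the OBESE range. By library totals alone that library had 983 CPM, beside 976 CPM in OBESE week 7 replicate 1. At week 10 it stood at 1067, 427 and 720 CPM in the OBESE replicates, against 763, 619 and 623 CPM in the CTRL replicates. OBESE week 10 replicate 2 had the lowest value of the series for both miRNAs. OBESE week 7 replicate 2 was also low for both, while OBESE week 14 replicate 2 was not (1286 CPM for miR-103 and 1026 CPM for miR-107). At week 14 miR-107 stood at 1104, 1026 and 751 CPM in the OBESE replicates, against 484, 711 and 1052 CPM in the CTRL replicates. The diets overlapped, with CTRL replicate 3 within the OBESE range.

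**Figure D1:**
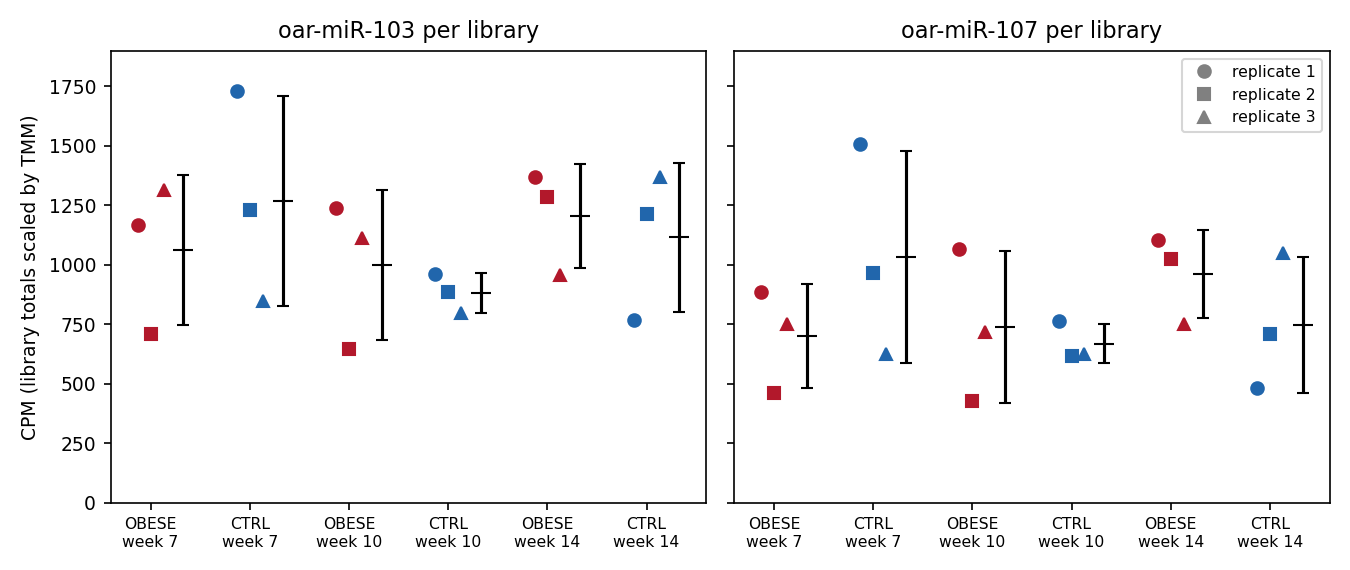
CPM of miR-103 (left) and miR-107 (right) in each library, by diet and week (red OBESE, blue CTRL; symbols give the replicate number; black bars are mean ± SD, n = 3). The diets overlap at every week for both miRNAs, and CTRL week 7 replicate 1 is highest in both panels, at 1729 and 1506 CPM.

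Averaged over the 3 weeks, miR-103 stood at 1090 ± 264 CPM in the OBESE group and 1089 ± 321 CPM in the CTRL group (SD, n = 9 each). The edgeR quasi-likelihood log2 fold change was 0.01 (SE 0.18, edgeR adjusted p = 0.969 over 168 features), with a 95% interval from 0.776-fold to 1.31-fold. miR-107 stood at 799.5 ± 247 CPM in the OBESE group and 816 ± 315 CPM in the CTRL group. Its log2 fold change was -0.02 (SE 0.213; adjusted p = 0.969 in edgeR), with an interval from 0.723-fold to 1.35-fold. Both signs turn with other settings. With a replicate block miR-103 had -0.00313. With counts summed over weeks for each replicate number, miR-103 and miR-107 each had 0.07 (edgeR adjusted p = 0.958 and 0.967). The main fit treats the 9 libraries of a diet as independent. Its intervals may be too narrow if libraries of different weeks share ewes. With library totals alone the log2 fold change was 0.23 for miR-103 and 0.22 for miR-107, where the median of all features was 0.16. Summed into 1 feature, the pair stood at 1889 ± 497 CPM in the OBESE group and 1905 ± 629 CPM in the CTRL group, and edgeR gave a log2 fold change of 0.02 (SE 0.193; adjusted p = 0.966). The summed value does not depend on which of the 2 a read was credited to, provided each read was counted once. Of the 2 miRNAs, 0 passed the adjusted threshold of 0.05, and neither did any other feature, so that the background was 0%. The number of features with an unadjusted p under 0.05 was 19 of 168 with edgeR, and neither miRNA was among them.

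Within single weeks the 95% interval of each log2 fold change included 0. At week 7 the log2 fold changes were -0.25 (SE 0.312) for miR-103 and -0.56 (SE 0.371) for miR-107, with edgeR adjusted p-values of 0.851 and 0.766. Single libraries moved these values in both directions. Without CTRL replicate 1 the log2 fold change was 0.00 for miR-103 and -0.21 for miR-107. Without CTRL replicate 3 they were -0.47 and -0.81. Without OBESE replicate 1 they were -0.42 and -0.86, without OBESE replicate 2 they were -0.09 and -0.39, and without OBESE replicate 3 miR-103 had -0.42. None of these passed the edgeR adjusted threshold. With all libraries and without TMM scaling they were 0.04 and -0.23, where the median of all features was 0.25. At week 10 they were 0.18 (SE 0.312) and 0.14 (SE 0.37), with edgeR adjusted p-values of 0.843 and 0.903. Without OBESE week 10 replicate 1 they were 0.01 and -0.20, and without OBESE week 10 replicate 2 they were 0.45 and 0.46. At week 14 they were 0.11 (SE 0.312) and 0.36 (SE 0.37), with edgeR adjusted p-values of 0.936 and 0.819. Without CTRL week 14 replicate 1 they were -0.12 and 0.10, and without CTRL week 14 replicate 3 they were 0.21 and 0.61. The 95% interval for miR-107 at week 14 ran from 0.748-fold to 2.20-fold, so these data leave room for sizeable differences in either direction. The diets overlapped for both miRNAs at all 3 weeks, while 8.93%, 13.1% and 9.52% of the 168 features had groups that did not overlap at weeks 7, 10 and 14. The interaction of diet and week did not pass for miR-103 (edgeR adjusted p = 0.988, unadjusted 0.579) or for miR-107 (edgeR adjusted p = 0.988, unadjusted 0.215). At the same threshold 0% of the features passed at any week or for the interaction, and an unadjusted edgeR p under 0.05 was found for 9, 11 and 13 features at weeks 7, 10 and 14 and for 7 in the interaction.

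Changes over time were compared within each diet. In OBESE libraries at week 14 against week 7, the log2 fold change was 0.18 (SE 0.312) for miR-103 and 0.46 (SE 0.37) for miR-107, with edgeR adjusted p-values of 0.929 and 0.772. Without OBESE week 7 replicate 1 they were 0.33 and 0.74, and without OBESE week 7 replicate 2 they were 0.02 and 0.29. At week 10 against week 7 they were -0.09 (SE 0.312) and 0.08 (SE 0.369) in OBESE libraries, each with an edgeR adjusted p of 0.993, and the first was 0.04 without TMM scaling. In CTRL libraries at week 10 against week 7, the values were -0.53 (SE 0.313) and -0.63 (SE 0.372). Their edgeR adjusted p was 0.947 for each, and without TMM scaling they were -0.24 and -0.32 beside a median of 0.14 over all features. Without CTRL week 7 replicate 1 they were -0.20 and -0.21. In CTRL libraries at week 14 against week 7 they were -0.19 (SE 0.312) and -0.46 (SE 0.37), each with an edgeR adjusted p of 0.977, and without CTRL week 7 replicate 1 they were 0.17 and -0.02. The weeks overlapped for both miRNAs in all 4 comparisons. Groups that did not overlap were found for 4.76% of features in CTRL week 10 against week 7 and 5.36% in CTRL week 14 against week 7. In OBESE libraries the shares were 16.1% for week 10 and 13.7% for week 14. In each of the 4 comparisons 0% of the features passed the adjusted threshold.

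**Figure D2:**
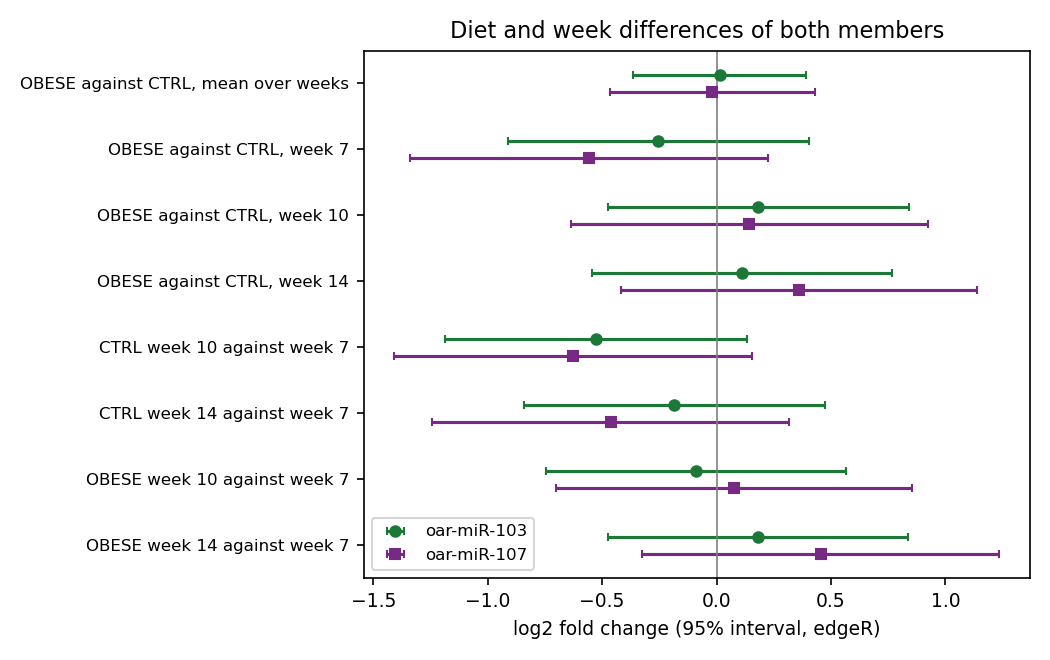
Log2 fold changes of miR-103 (circles) and miR-107 (squares) for the 4 diet comparisons and the 4 comparisons of weeks, from edgeR, with 95% intervals. Every interval crosses 0, and the value farthest from 0 is -0.63, for miR-107 in CTRL week 10 against week 7.

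In order of mean CPM, miR-103 was highest in CTRL week 7 (1269 ± 441), then OBESE week 14 (1205 ± 218), CTRL week 14 (1116 ± 312), OBESE week 7 (1063 ± 315), OBESE week 10 (1000.02 ± 314) and CTRL week 10 (882 ± 83.02; SD, n = 3 each). Neighbours in that order differed by less than the SD of either group, except that the gap between OBESE week 10 and CTRL week 10 was larger than the CTRL SD but not the OBESE one. For miR-107 the order was CTRL week 7 (1032 ± 445), OBESE week 14 (961 ± 186), CTRL week 14 (749 ± 286), OBESE week 10 (738 ± 320), OBESE week 7 (700.1 ± 218) and CTRL week 10 (668 ± 82.1). Here the gap between OBESE week 14 and CTRL week 14 was larger than the OBESE SD but not the CTRL one. The first 3 groups and the last were the same for both miRNAs. Within groups the SD of log2 CPM was 0.413 for miR-103 and 0.501 for miR-107. The median was 0.475 over all 168 features, but 0.301 over the 42 other features with a mean CPM between 0.5 times that of miR-107 and 2 times that of miR-103. Among features of like abundance, the pair varied more within groups than the median feature.

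The 2 miRNAs moved together from library to library. Over the 18 libraries the log2 CPM of miR-103 and miR-107 correlated with a Pearson r of 0.937 and a Spearman rho of 0.922. Exact permutation of miR-107 within the 6 groups of diet and week (all assignments, two-sided) gave p = 0.000171 for r and p = 0.00015 for rho. After group means were subtracted, r was 0.954 (exact p = 0.000171) and rho was 0.930 (exact p = 0.000129). This test treats libraries as independent, which the labels do not establish. Without the 2 libraries farthest from the median of miR-103, which were OBESE replicate 2 at weeks 10 and 7, r was 0.902. Without CTRL week 7 replicate 1 and CTRL week 14 replicate 3, r was 0.911. Within the diets r was 0.930 in OBESE and 0.945 in CTRL libraries (n = 9 each), and within weeks 7, 10 and 14 it was 0.942, 0.940 and 0.922 (n = 6 each). By library totals alone r was 0.913 (exact p = 0.000171). The shared library scaling and any reads credited to the wrong member act on both levels, and their part in the correlation was not tested.

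**Figure D3:**
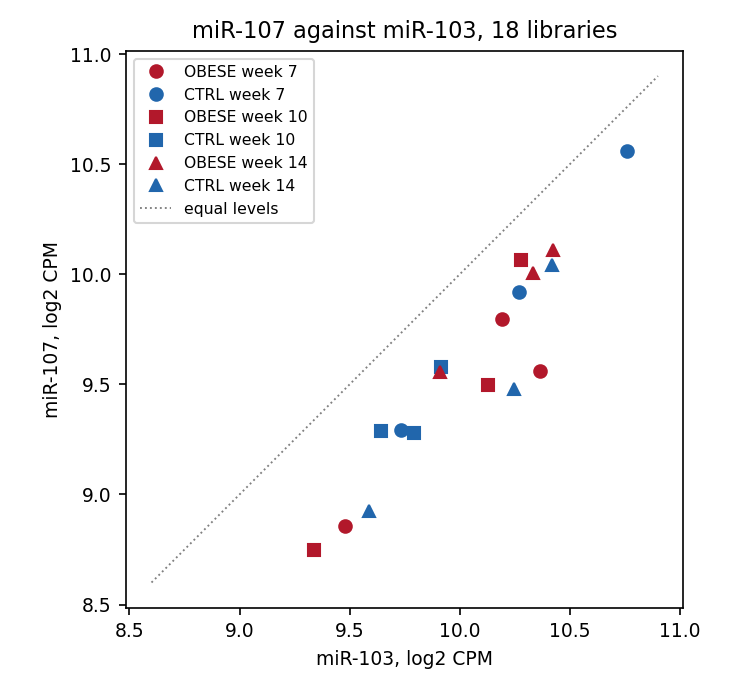
Log2 CPM of miR-107 against miR-103 in the 18 libraries (red OBESE, blue CTRL; circles week 7, squares week 10, triangles week 14). All points lie below the dotted line of equal levels, and both diets and all weeks fall along 1 band (Pearson r 0.937).

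Ranked by Spearman rho over the 18 libraries, each member was the feature most like the other, first of 167. This held with DESeq2 size factors (rho 0.905), with library totals alone (rho 0.856) and after subtraction of group means (rho 0.930). The median rho of the other features was 0.02 with miR-103 and -0.01 with miR-107. The next features in order carry only running numbers in the files, with no sequence, and are written here as unnamed miRNAs. For miR-103 they were unnamed miRNA 38 (rho 0.816), unnamed miRNAs 40 and 41 (0.802 each) and unnamed miRNA 1 (0.752). For miR-107 they were unnamed miRNA 50 (0.680), unnamed miRNA 38 (0.643) and unnamed miRNAs 40 and 41 (0.622 each). The order for miR-107 depended on the setting. After subtraction of group means, unnamed miRNAs 50, 38, 40 and 41 ranked 5, 7, 9 and 8 with it. Unnamed miRNAs 38, 40 and 41 were scarce, with means of 94.6, 91.4 and 91.7 CPM. Unnamed miRNA 1 was abundant, at a mean of 131962 CPM, and its rho with miR-103 was 0.443 by library totals alone. All points share library, depth and scaling, so these values are a description without a test.

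The ratio of the 2 counts in a library needs no scaling. miR-103 exceeded miR-107 in all 18 libraries and made up 57.5% of the 25447 counts of the pair. The ratio averaged 1.40 ± 0.193 in OBESE libraries and 1.37 ± 0.175 in CTRL libraries (SD, n = 9 each). The difference in mean log2 ratio was 0.03, with an exact two-sided p of 0.779 by permutation of diet labels within weeks (8000 assignments). This permutation treats libraries of different weeks as independent, which the labels do not establish. Between libraries the share of miR-103 in the pair had an SD of 3.05 percentage points, where counting alone would give 1.422. Its lowest value was 53.4% (95% Wilson interval 50.8% to 56.04%) in CTRL week 7 replicate 1, and its highest 63.6% (61.1% to 66.02%) in OBESE week 7 replicate 3. These intervals cover counting error only. Per the labels' protocol, reads were deduplicated by molecular identifiers. The SD of the log2 ratio within groups was 0.164, smaller than the 0.413 and 0.501 of the log2 levels.

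The mean ratio was higher in OBESE than in CTRL libraries at week 7 and lower at week 14. No single week could pass at 0.05, since the smallest exact p with 3 libraries a group is 0.1. At week 7 the ratio was 1.32, 1.54 and 1.75 in OBESE replicates 1 to 3, against 1.15, 1.27 and 1.36 in the CTRL replicates. The OBESE values were mostly above the CTRL values, with OBESE replicate 1 inside the CTRL range. At week 10 it was 1.16, 1.51 and 1.55 in the OBESE replicates, against 1.26, 1.43 and 1.28 in the CTRL replicates, with the OBESE values on both sides of the CTRL ones. At week 14 it was 1.24, 1.25 and 1.28 in the OBESE replicates, against 1.58, 1.71 and 1.301 in the CTRL replicates. Here all OBESE libraries lay below all CTRL libraries, though the counting intervals of the OBESE libraries overlap that of CTRL replicate 3.

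The OBESE minus CTRL differences in mean log2 ratio were 0.28, 0.08 and -0.27 at weeks 7, 10 and 14, with exact two-sided p-values of 0.2, 0.8 and 0.1. With 3 values a group the smallest possible exact p is 0.1, and adjusted over the 3 weeks the p-values were 0.3, 0.8 and 0.3. The diet difference at week 14 minus that at week 7 was -0.55, a test chosen after the values were seen (exact p = 0.015 over 400 permutations of diet labels within these weeks, 0.045 adjusted over the 3 pairs of weeks). A single statistic over all 3 weeks, the variance of the 3 diet differences, gave an exact p of 0.033 (8000 assignments), also added after the values were seen. Both treat the weeks as independent, which would not hold if libraries share ewes. Taken per replicate number instead, the log2 ratio at week 14 minus that at week 7 was -0.08, -0.30 and -0.45 in OBESE numbers 1 to 3, against 0.46, 0.42 and -0.06 in the CTRL numbers. The difference was again -0.55, with an exact p of 0.1, the smallest that 3 values a group can give, so the threshold could not be reached when numbers were taken as pairs.

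Within OBESE, the mean log2 ratio was 0.33 at week 14, against 0.61 at week 7, and the weeks did not overlap (exact p = 0.1, 0.4 adjusted over the 4 comparisons of weeks). Within CTRL it was 0.60 at week 14, against 0.33 at week 7, with overlap (exact p = 0.2, adjusted 0.4). The ratio was lower where miR-107 was higher (Spearman rho -0.73 with the log2 CPM of miR-107 over 18 libraries). It was also lower where miR-103 (rho -0.47) and the summed pair (rho -0.57) were higher. These values are a description, since the counts of the 2 miRNAs enter the ratio as well as the levels. The rho of the ratio was 0.11 with the library total and 0.03 with the miR-16b share.

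**Figure D4:**
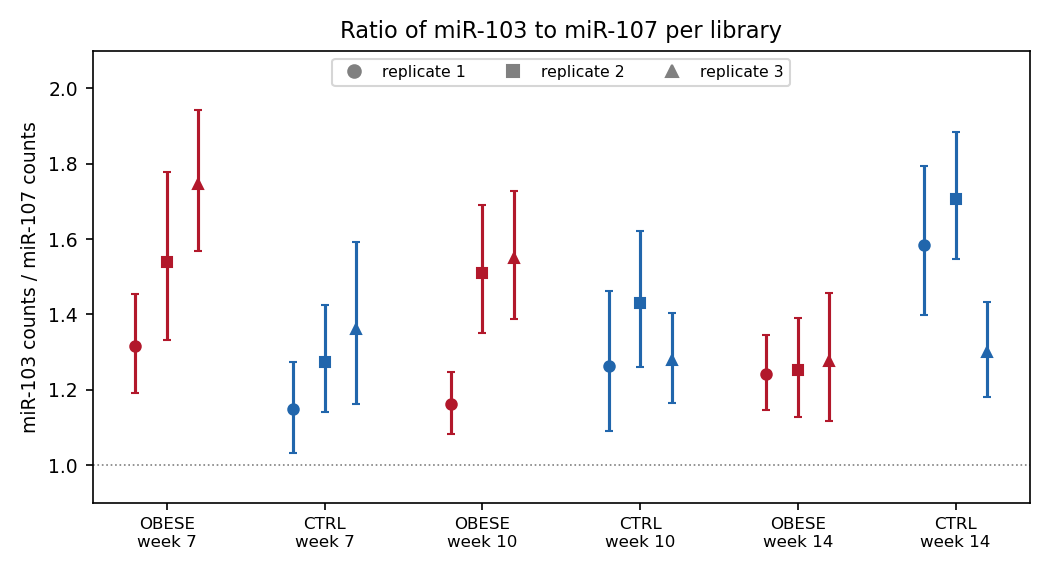
Ratio of miR-103 to miR-107 counts in each library by diet and week (red OBESE, blue CTRL; symbols give the replicate number; bars are 95% Wilson intervals, counting error only; the axis starts at 0.9 and the dotted line marks equal counts). At week 14 the OBESE libraries lie between 1.24 and 1.28 and the CTRL libraries between 1.301 and 1.71.

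The pair was set beside other miRNAs tied to insulin action and fat tissue. Of 31 listed, 21 are features of the files and 20 were tested, miR-103 and miR-107 included. For the diet difference averaged over weeks, the other 18 had 9 positive and 9 negative log2 fold changes with a median of 0.01, beside a median of -0.00216 over all 168 features. Without TMM scaling 17 of the 18 were positive with a median of 0.18, beside 0.16 over all features. None of the 20 passed the edgeR threshold. The smallest p-values belonged to miR-30a-5p, a miRNA studied in fat cell differentiation, at 2619 ± 735 CPM in OBESE libraries and 1645 ± 373 CPM in the CTRL group (SD, n = 9 each; edgeR adjusted p = 0.113). miR-26a, also linked to insulin sensitivity, stood at 1518 ± 325 and 1216 ± 145 CPM in OBESE and CTRL libraries (edgeR adjusted p = 0.285). let-7g, of the let-7 family that acts on the insulin pathway in mice, and miR-200c followed, with log2 fold changes of -0.21 (SE 0.105) and 0.33 (SE 0.177), or -0.04 and 0.49 without TMM scaling. Across libraries miR-30a-5p had a rho of 0.02 with miR-103 and -0.04 with miR-107. miR-30d, which was looked at after its values were seen, had a rho of -0.68 with miR-103 and -0.57 with miR-107. These were the lowest of the 20 tested. The rho values of miR-30a-5p and miR-30d were taken with TMM scaling and not by library totals.

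miR-103 and miR-107 are counted in 1 superfamily with miR-15 and miR-16, whose seeds overlap theirs. Of the 10 listed members, the files hold features for 3, the third being miR-16b, a miRNA abundant in red blood cells. miR-16b stood at 436026 ± 65331 CPM in OBESE libraries and 529635 ± 156494 CPM in the CTRL group, and edgeR gave a log2 fold change of -0.28 (SE 0.149; adjusted p = 0.465). Without TMM scaling that fold change was -0.06 (SE 0.0722; edgeR adjusted p = 0.703). Its rho over the 18 libraries was 0.368 with miR-103 and 0.199 with miR-107, and 0.04 and 0.08 by library totals alone. miR-25, another red blood cell marker, had rho 0.480 with miR-103 and 0.342 with miR-107, and 0.12 and 0.22 by library totals alone. miR-106b had 0.304 and 0.307, and 0.11 and 0.15 by library totals alone. Since plasma can hold RNA of blood cells, marker miRNAs were followed as well. The 3 red blood cell markers with features (miR-16b, miR-25 and miR-106b, of 9 listed) summed to 428804 to 515624 CPM by library totals in OBESE libraries and to 441599 to 552343 CPM in CTRL libraries. The 4 platelet markers with features (of 6 listed) summed to between 30113 and 83744 CPM in OBESE libraries and between 23036 and 52935 CPM in CTRL libraries. One of them, miR-150, is also on the leukocyte list, so neither this sum nor its fold change is particular to platelets. Of the platelet markers, miR-150 had a log2 fold change of 0.38, miR-199a-3p of 0.17, miR-191 of 0.06 and miR-21 of -0.00331. Without TMM scaling these were 0.49, 0.36, 0.23 and 0.16. The platelet markers went both ways with the pair. miR-199a-3p had rho 0.486 with miR-103 and 0.375 with miR-107, miR-191 had -0.52 and -0.55, miR-21 had -0.26 and -0.13, and miR-150 had -0.48 and -0.50. Of the red blood cell markers, miR-106b had a log2 fold change of -0.40 and miR-25 of -0.21, or -0.22 and 0.01 without TMM scaling. miR-194 (0.45, SE 0.265) and miR-148a (0.20, SE 0.456) of liver and miR-133 (-0.51, SE 0.515) of muscle completed the lists. Without TMM scaling they had 0.65, 0.31 and -0.31. miR-148a and miR-133 were near the floor, with lowest counts of 0 and 1 in a library. The diet difference of miR-133 was -1.95, 1.26 and -0.83 at weeks 7, 10 and 14. Of all these markers, 0 passed the edgeR threshold. miR-150, the 1 leukocyte marker with a feature (of 6 listed), had rho -0.48 with miR-103 and -0.50 with miR-107. Of the liver list (2 of 4 with features) and the muscle list (1 of 5), none exceeded an absolute rho of 0.205 with either miRNA. The rho values of the platelet, leukocyte, liver and muscle markers were taken with TMM scaling and not by library totals. The part of blood cell RNA in the level of the pair was not tested.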

How the data were processed

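Plasma miRNAs were sequenced from libraries of the QIAseq miRNA kit with deduplication by molecular identifiers, per the labels' protocols. The values are raw counts per miRNA as deposited by the authors. The library table and the single files differed in 0 values. Tools listed in the submitters' processing notes, with no role stated, are cutadapt (4.9), Bowtie (1.3.1) and DESeq2 (1.42). No source used here gives the build, the miRNA annotation or the treatment of reads that match several miRNAs.

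The deposited counts were fitted with edgeR 4.0.16 under R 4.3.3. filterByExpr by group (minimum count 10, minimum total 15) kept 168 of 364 features, libraries were scaled by TMM, and 1 quasi-likelihood model was fitted to 18 libraries in 6 groups (residual df 12). The edgeR p-values are two-sided, adjusted by Benjamini-Hochberg across the 168 features. The SE was taken approximately, as the absolute fold change on the log2 scale over the root of the F statistic. log2 CPM used a prior count of 2. Ratios and the correlation were tested by enumerating every permutation in Python 3.11.15 with numpy 2.4.6, and Wilson intervals came from scipy 1.17.1. The edgeR and ratio tests of the diet difference averaged over weeks were tried on simulated data with independent libraries. The tests of the correlation and of the ratio's change between weeks were not simulated.

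The alternatives were DESeq2 1.42.0 and its size factors, limma 3.58.1 (voom), no TMM, no filter, replicate blocks, counts summed over weeks and leaving out libraries. Named miRNAs are the pair, the 5 features with the highest rho with each, the 4 smallest p of each list and the superfamily members. miR-30d was named outside this rule. Likeness and list values under other scalings and the tests of the ratio between weeks, with and without pairing by number, were added after the data were seen. The superfamily was taken by name, since no mature sequences were used here. The members and lists were chosen with earlier results of these data known.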

Additional observations from a re-analysis of the deposited data

Results flagged for a closer look

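The ratio of miR-103 to miR-107 was singled out because its diet difference had opposite signs at weeks 7 and 14 in these libraries. That comparison was chosen after the data were seen, and its adjustment does not cover the other tests made here. The OBESE minus CTRL difference in mean log2 ratio was 0.28 at week 7 and -0.27 at week 14. The change was -0.551 (exact permutation of diet labels within both weeks, p = 0.015, 0.045 adjusted over the 3 pairs of weeks). That test ignores the replicate numbers. With week 14 minus week 7 taken per number, the exact p was 0.1, the smallest that 3 changes a diet can give, so the threshold could not be reached. Without that pairing the change kept its sign in the 12 fits that left out 1 library. The values lay between -0.664 and -0.453, with exact p-values between 0.005 and 0.04. These fits reuse most of the same libraries for a comparison chosen after the values were seen, so they are no separate support. The ratio also depends on how reads matching both miRNAs were assigned, which is not given. The edgeR interaction of diet and week on the levels did not pass for either miRNA.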

How the results depend on the processing

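Over the 23 results that have a sign, 522 values were recomputed with 1 choice changed, and 49 of them turned the sign. Of the edgeR, limma or DESeq2 values for the 2 miRNAs, 0 passed the adjusted threshold under any alternative. For the averaged diet difference, miR-103 had -0.00313 and the summed pair -0.00751 with a replicate block across all groups. miR-107 had 0.219 without TMM, 0.0210 without the low-count filter, 0.214 without both libraries with the lowest TMM factors and 0.0677 with counts summed over weeks. Without TMM, miR-103 had 0.0392 at week 7 and 0.0413 in OBESE week 10 against week 7, where it had 0.0985 without the filter. The ratio's diet difference was -0.0329 without both low-TMM libraries. Leaving out 1 library gave ranges of -0.0109 to 0.0706 for that ratio difference, -0.0767 to 0.0756 for averaged miR-103, -0.168 to 0.0585 for averaged miR-107 and -0.102 to 0.0732 for the summed pair. For single weeks the ranges were -0.471 to 0.000364 (miR-103) and -0.857 to -0.208 (miR-107) at week 7, 0.0138 to 0.453 and -0.203 to 0.463 at week 10, and -0.119 to 0.207 and 0.104 to 0.606 at week 14. Against week 7, miR-103 and miR-107 had -0.741 to -0.199 and -0.881 to -0.212 in CTRL week 10, -0.406 to 0.165 and -0.721 to -0.0208 in CTRL week 14, -0.179 to 0.216 and -0.152 to 0.420 in OBESE week 10, and 0.0175 to 0.338 and 0.288 to 0.737 in OBESE week 14. The cause was not tested. The numbers were not taken as pairing in the main tests, because the labels do not say that they mark the same ewes. Of 18 same-numbered pairs within a diet, 16 had deviations correlated over 0.1 (mean r 0.343). Among differently numbered pairs within a diet it was 2 of 36 (mean r -0.17). Across diets, where no ewe is shared, it was 14 of 27 same-numbered pairs (mean r 0.118) and 7 of 54 differently numbered pairs (mean r -0.059). Since the deviations are from group means, they sum to 0 within a group. The mean for differently numbered pairs thus follows largely from that for same-numbered pairs and is no separate contrast. Within their diet and other weeks, 17 of 18 libraries correlated best with their own number. That is a hint of pairing from the data and not the design, and shared ewes were not tested. With numbers as a replicate block, the ratio's change of diet difference between weeks 7 and 14 stayed at -0.551 but did not pass (exact p = 0.1, the smallest that fit can give). The block changed no edgeR call for the 2 miRNAs. With 3 libraries a group the weekly intervals are wide.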
